A study of Mus musculus with 3 samples.

Results

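Undefined2 is a cluster of cells from mouse BRAF-mutant melanomas that the submitters grouped by single-cell expression and left without a cell type name. Its members were taken directly from the deposited cluster assignments, as every cell with the identity Undefined2, and numbered 391 of 12670 cells in 25 clusters. The untreated tumor held 80 of them, the tumor that had regressed under vemurafenib 102, and the tumor that had progressed under vemurafenib 209. The cells carried the 3 keratins taken as their markers, Krt5 and Krt14 of basal keratinocytes and Krt10 of suprabasal keratinocytes, at the highest levels of any cluster. Within the cluster the levels of these genes varied between cells: some cells were rich in Krt5 and Krt14, others in Krt1 and Krt10. Others were rich in Krt79, Cst6 and Defb6, genes of the upper hair follicle. Many cells held UMIs of both keratin pairs, but such counts depend on depth and on RNA found in cells that should not make it.

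The study profiled 3 melanomas, 1 per group, with droplet-based 3′ single-cell RNA sequencing that counts unique molecular identifiers (UMIs, tags that mark single captured RNA molecules). All 3 mice carried a Cre-activated Braf V600E allele (LSL) and Tyr.CreER, a tamoxifen-inducible Cre under the tyrosinase promoter, on a C57BL/6J background. Some animals of the colony also carried the Rosa26 LSL tdTomato reporter, and the labels do not say which of these tumors did. Recombination was started with 4-OH tamoxifen on the back skin of adult mice; the tyrosinase promoter is one of pigment cells, not keratinocytes. The regressed and progressed tumors had received vemurafenib, an inhibitor of mutant BRAF, by gavage, and the untreated tumor had not. The tumors were dissociated and prepared for flow cytometry before capture, and no sort gate was given in the sources used here. The number of keratin-rich cells per tumor need not equal their share of the tissue. With 1 tumor per group no difference between tumors could be tested, and group, mouse, library and sequencing lane cannot be told apart. Every interval below is a 95% interval for counting error only.

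Skin epithelium is renewed from a basal layer attached to the basement membrane by hemidesmosomes, whose cells make the keratin pair Krt5 and Krt14. On leaving that layer, keratinocytes switch to Krt1 and Krt10 in the spinous layer and then make the proteins of the granular layer and the cornified envelope. The upper hair follicle, or infundibulum, opens this sheet to the surface and has a programme of its own that includes Krt79, while Krt6a, Krt6b and Krt16 are held low in normal epidermis between follicles and are known to be induced in wounded or inflamed skin. The follicle's bulge, inner root sheath, hair shaft and sebaceous gland each have further keratins or lipid enzymes.

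The libraries held 22202192 UMIs in the untreated, 12413268 in the regressed tumor and 26948940 in the progressed one. Undefined2 cells were deeper than the library as a whole, with a median of 9429 against 4496 UMIs per cell in the untreated, 6818 against 2658 in the regressed and 8666 against 4566 in the progressed tumor, and together gave 1006129, 927817 and 2088472 UMIs. The untreated and progressed libraries held Xist at 917 and 1274 UMIs per 1000000 UMIs of Undefined2 (counts per unit of depth, CPM below), and the regressed library held it at 1.08 with Y-linked genes at 235, so the sex of the mouse differed along with the group. Haemoglobin transcripts made up 0.33% of Undefined2 UMIs in the regressed tumor. The erythroid list summed to 26.8, 1681 and 0.958 CPM for the untreated, regressed and progressed Undefined2 cells. Fibroblast genes gave 1231, 3476 and 2690 CPM in Undefined2 against 33694, 25414 and 37899 in the other cells. The part of such RNA in the differences between tumors was not tested.

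Undefined2 made up 1.95% of cells in the untreated tumor (95% exact binomial interval 1.55 to 2.43), 2.74% in the regressed tumor (2.24 to 3.31) and 4.31% in the progressed tumor (3.76 to 4.92). The order was the same among non-immune cells, with 2.63%, 3.68% and 5.02%. Undefined1, the other keratin-rich cluster without a name, held 132, 121 and 194 cells. Undefined2 accordingly made up 37.7%, 45.7% and 51.9% of the 2 clusters together.

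Across the 25 clusters the defining keratins were highest in Undefined2. With the 3 tumors summed, Krt14 (gene 16664, chr11:100203162-100207510, GRCm38) stood at 14562 CPM in Undefined2 and at 6730 in Undefined1, the next highest cluster. Krt5 (gene 110308, chr15:101707069-101712905) stood at 5561 in Undefined2 and 4712 in Undefined1. The cluster of dividing cells came next for both, at 2585 for Krt14 and 1798 for Krt5. Krt10 (gene 16661, chr11:99385254-99397449) separated the keratin-rich clusters far more, with 5633 in Undefined2 and 142 in Undefined1, and its nearest neighbour was the mitochondria-rich cluster at 455. Krt1, the type II partner of Krt10, gave 4859 and 39.5. Krt79, a keratin of the infundibulum (gene 223917, chr15:101929332-101940324), gave 4432 and 801. Krt15, a keratin of basal and bulge cells, was the exception, at 2422 in Undefined2 and 7312 in Undefined1.

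**Figure D1:**
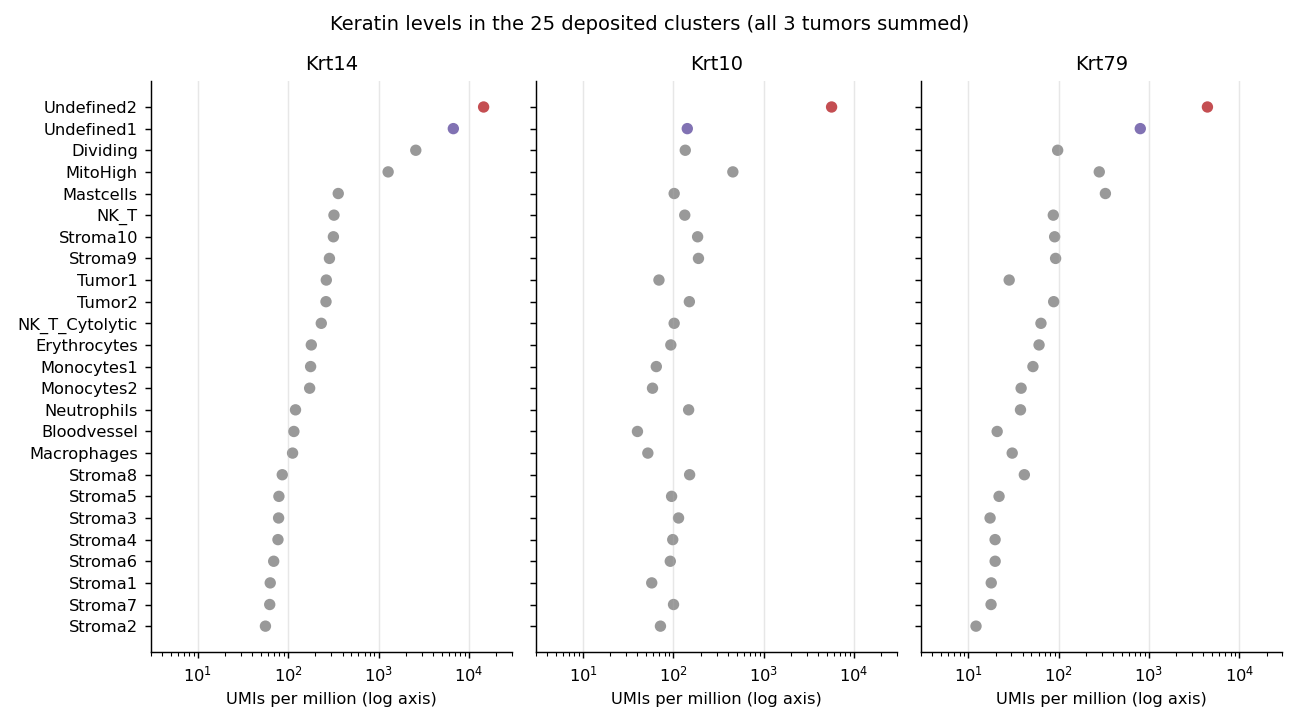
Each point is 1 of the 25 deposited clusters with all 3 tumors summed, and the x axes give Krt14, Krt10 and Krt79 in CPM on a log scale. Undefined2 (red) is the highest point in all 3 panels, at 14562, 5633 and 4432, and Undefined1 (purple) lies close behind only for Krt14.

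Cornified envelope genes and suprabasal and wound keratins were among the 20 genes leading Undefined2 over all other cells. Since the cluster was built from these cells' expression, the contrast is a description with no test. The 5 largest log2 ratios, averaged over tumors, belonged to Skint9 (7.71), Sprr2b (7.65), Gm94 (7.57), Sprr1b (7.45) and Sprr1a (7.29), where the Sprr genes encode small proline-rich proteins of the cornified envelope. Next came Dsc1, the desmosomal cadherin desmocollin 1, at 7.16, Krt16 at 7.13, Krt6b at 7.12, and Krt1 and Calm4, a calmodulin-like protein of skin, both at 7.03. The other 10 lay between 6.52 and 7.0 and were Sprr2a3, Ly6g6c, Krt77, Cnfn, Cstdc5, Csta3, Cst6, Klk11, Csta1 and 2610528A11Rik. Sprr2 genes, Krt6a with Krt6b, and the stefin A genes have near-identical copies, so the split of their UMIs between copies is uncertain. Of 3029 genes with enough counts, 18.3% were at least 2-fold higher in Undefined2 than in other cells and 7.03% at least 2-fold lower.

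Undefined2 and Undefined1 shared the basal keratins and parted in differentiation genes. Against Undefined1 the largest mean log2 ratios were Sprr1b at 7.23, Krt1 at 6.95, Mt4, the metallothionein of stratified epithelia, at 6.89, Stfa1 at 6.47 and Cstdc5 at 6.40. The next 5 were Gm94, Csta3, Krt16, Dsc1 and Tmprss4, between 5.68 and 6.36. Mt4 was 328, 1092 and 1389 CPM in Undefined2 of the untreated, regressed and progressed tumors, and 2.05, 17.7 and 8.28 in Undefined1. On the other side stood Ptn, the growth factor pleiotrophin, at a log2 ratio of -3.12, Mgst1 at -2.67, Emb at -2.45, the chemokine Cxcl14 at -2.30 and Gjb2, which encodes connexin 26, at -2.19. Lmo1, Marcksl1, Scd1 and Krt15 were also lower, between -2.08 and -1.83. Cxcl14 stood at 587, 238 and 902 CPM in Undefined2 and at 4393, 1695 and 2035 in Undefined1, lower in Undefined2 in each tumor. Among the 3029 genes, 7.03% were at least 2-fold higher in Undefined2 than in Undefined1 and 2.77% at least 2-fold lower.

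Among the gene lists for each layer and appendage, those of the differentiating epidermis and the upper follicle were higher in Undefined2 than in Undefined1, and those of the bulge, hair shaft and sebaceous gland were lower. Summed over members, the spinous list (Krt1, Krt10, Krtdap, Sbsn, Dmkn, Dsg1a and Dsc1) exceeded Undefined1 by a log2 ratio of 2.37, 3.37 and 3.28 in the untreated, regressed and progressed tumors. The upper follicle list exceeded it by 1.87, 2.09 and 1.87, the granular list by 5.13, 3.19 and 3.56, and the stress list, which holds the wound keratins, S100a8, S100a9 and cornified envelope genes, by 1.81, 0.92 and 0.81. The basal list was close to level, at 0.34, -0.05 and 0.38, and with the tumors summed its ratio of 0.26 turned to -0.52 when Krt14 was left out. The spinous, upper follicle, granular and stress lists were thus higher in Undefined2 in each of the 3 tumors.

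Keratins of the inner root sheath and hair shaft were at or near 0. Of the inner root sheath list, Krt25, Krt26, Krt27, Krt28, Krt71, Krt72 and Krt73 had at most 4 UMIs in any tumor, and Gata3, a transcription factor also used by epidermis, gave 96.8% of that list's UMIs. The hair shaft list summed to 29.8, 56.0 and 36.4 CPM, and Krt32 was its keratin with the most counts, at 5, 24 and 15 UMIs. The list of the outer root sheath and companion layer summed to 11919.9, 4599 and 6884 CPM, above Undefined1 by a log2 ratio of 1.21, 0.76 and 0.46, and shares Krt6a, Krt6b, Krt16 and Krt17 with the stress list. Krt75, its companion layer keratin, had no UMIs, and neither had Krt8 and Krt18 of simple epithelia and Merkel cells. The sebaceous list summed to 189, 299.6 and 218 CPM, lower than in Undefined1 in each tumor, and Cidea, a lipid droplet protein of sebocytes, had 7, 5 and 11 UMIs. The bulge list summed to 1286, 4765 and 2323 CPM, of which Krt15 gave 92.2%. Among the bulge's transcription factors, Sox9 stood at 90.4, 99.2 and 147 in Undefined2 and 561, 232 and 359.8 in Undefined1, and Lhx2 at 16.9, 11.9 and 10.5 against 141, 199.97 and 94.9.

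**Figure D2:**
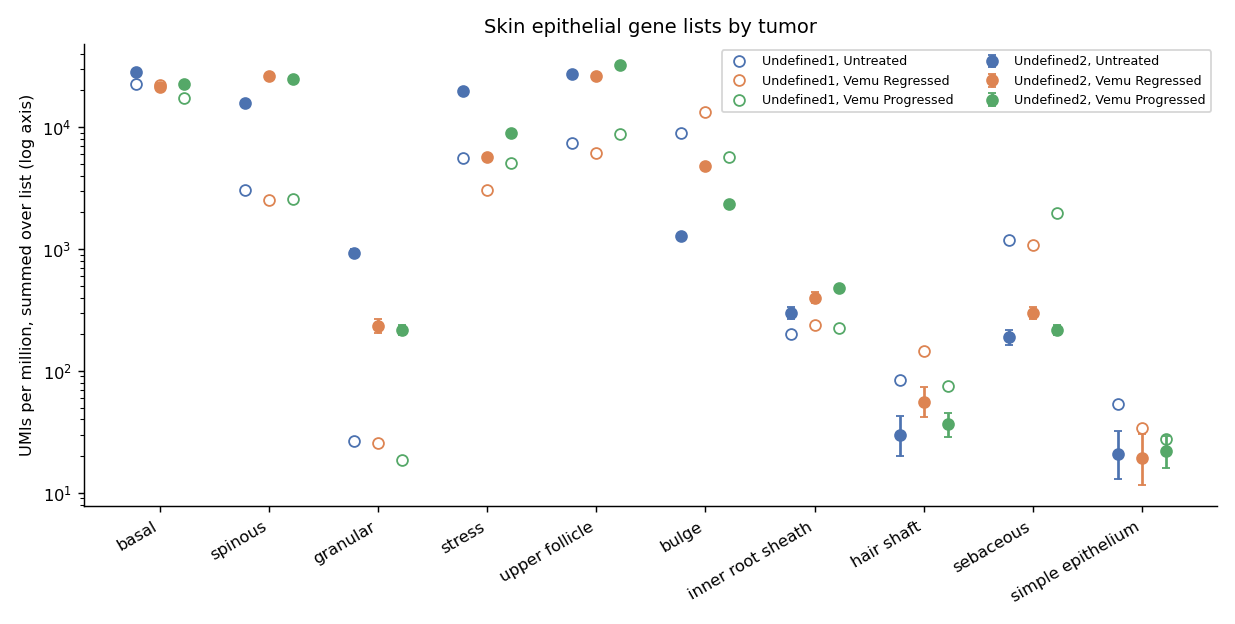
The y axis gives the summed level of each of 10 skin epithelial gene lists in CPM on a log scale, with 1 point per tumor, filled for Undefined2 with an exact Poisson 95% interval for counting error and open for Undefined1. The filled points lie above the open ones in every tumor for the spinous, granular, stress and upper follicle lists and below them for the bulge, hair shaft and sebaceous lists, and the untreated tumor (blue) has the highest granular and stress sums.

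The marker genes were unevenly spread over the cells of the cluster. A cell was placed in the suprabasal range when at least 1% of its UMIs came from Krt1 and Krt10. For the infundibular range, at least 1% had to come from Krt79, Cst6 and Defb6. Cells that reached 1% for both sets were left out of these ranges and are counted as both. Cst6 encodes cystatin M/E, an inhibitor of epidermal cysteine proteases, and Defb6 a beta-defensin. The ranges and the 1% limit were chosen after the data were seen, and each is a range of a continuous measure, not a cell type. Of the 391 cells, 77 (19.7%) were in the suprabasal range, 143 (36.6%) in the infundibular range, 11 (2.81%) in both and 160 (40.9%) in neither, and 68 cells (17.4%) lay near a limit.

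The untreated tumor had fewer cells in the suprabasal range than the others. It held 5 of its 80 cells there (6.25%, exact binomial interval 2.06 to 14), against 24 of 102 (23.5%) in the regressed tumor and 48 of 209 (23.0%) in the progressed one. These counts leave out the cells that reached both limits, which were 4 untreated (5%), 1 regressed (0.98%) and 6 progressed cells (2.87%). The infundibular range held 25, 46 and 72 cells, or 31.3%, 45.1% and 34.4%, and 46, 31 and 83 cells, or 57.5%, 30.4% and 39.7%, were in neither range. The cells in neither range were the ones with the most Krt5 and Krt14, which made up a median of 3.10%, 2.26% and 3.10% of their UMIs. In the suprabasal range that median was 1.60%, 0.217% and 0.0258%, and in the infundibular range 0.548%, 0.454% and 0.382%. Of the 5 untreated suprabasal cells, 3 lay near a limit, and 3 cells remained in that range with the limit at 2%.

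**Figure D3:**
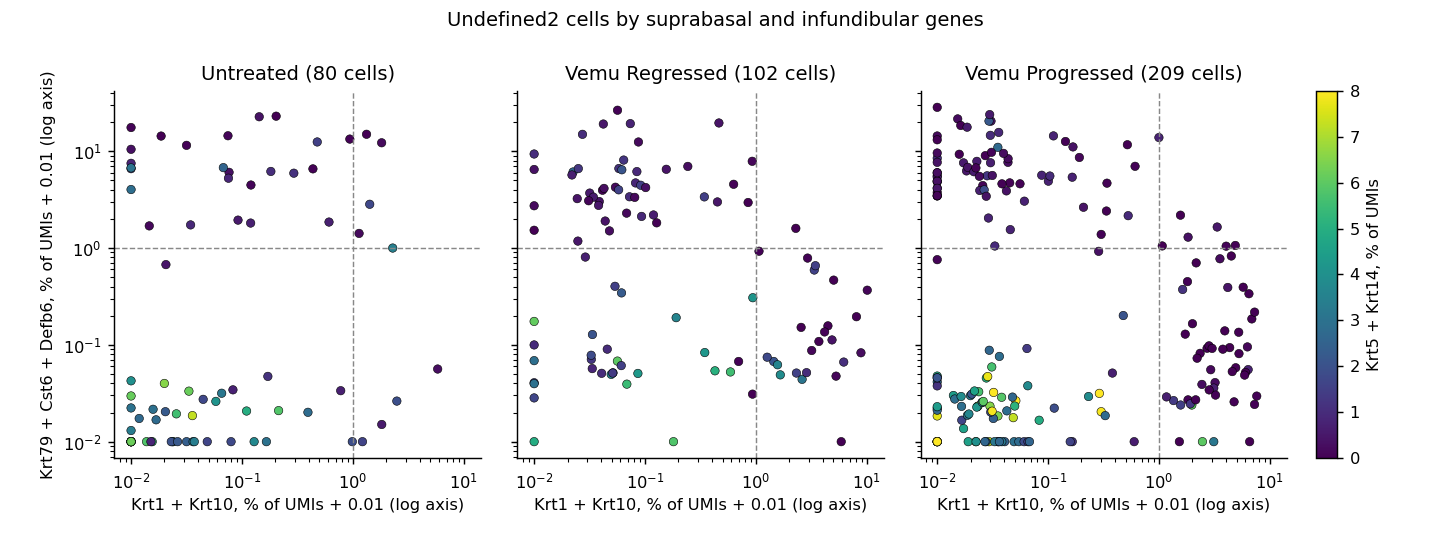
Each point is 1 Undefined2 cell, with the share of its UMIs from Krt1 and Krt10 on the x axis and from Krt79, Cst6 and Defb6 on the y axis, both in percent plus 0.01 on log scales, colored by the share from Krt5 and Krt14. The dashed lines mark 1%, and the cells bright in Krt5 and Krt14 lie mostly in the lower left, which holds 46 of 80 cells without treatment, 31 of 102 regressed and 83 of 209 progressed cells.

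Genes that did not define the ranges also differed between them, which is given as a description because all genes entered the clustering. Col17a1, a transmembrane collagen of the hemidesmosome, stood at 773, 652 and 1031 CPM for the untreated, regressed and progressed cells of neither range. These were the cells with the highest Krt14. In the suprabasal range Col17a1 stood at 72.2, 315 and 233, and in the infundibular range at 23.9, 124 and 45.1. Krt17, a follicle and stress keratin, stood at 17714, 8109 and 13214 in the infundibular range. It stood at 1042, 1631 and 290 in the suprabasal range and at 1555, 421 and 1545 in neither. Sox9 was found in 84.0%, 60.9% and 93.1% of infundibular cells, at 291, 190.3 and 398 CPM. Krtdap, a secreted protein of differentiating keratinocytes, stood at 16613, 13117 and 15397 in the suprabasal range. There, 1 of the 5 untreated cells held 55.4% of its UMIs. In the infundibular range Krtdap stood at 6201, 4063 and 6704, and in neither at 4072, 4528 and 1754. Krt77, a type II keratin of differentiated cells, stood in the suprabasal range at 30.9 in the untreated tumor (3 UMIs). It stood there at 1843 in the regressed tumor, where 1 cell held 73.4%, and at 3329.9 in the progressed tumor. In the infundibular range Krt77 stood at 258, 482 and 885, so the untreated tumor had more there than in the suprabasal range. Single cells were also thinned to 1000 UMIs, for which 79, 93 and 208 were deep enough. Spearman's rho of Krt5 with Krt14 was 0.64, 0.65 and 0.75, and of Krt79 with Defb6 0.87, 0.74 and 0.84. For Krt5 with Krt79 it was -0.81, -0.60 and -0.59. Krt5 was less opposed to the suprabasal keratins, at -0.26, -0.12 and -0.38 with Krt10 and -0.19, 0.05 and -0.31 with Krt1. Krt14 gave -0.50, -0.27 and -0.30 with Krt79 and -0.20, -0.25 and -0.53 with Krt10. In the progressed tumor Krt14 was thus more opposed to Krt10 than to Krt79. These coefficients describe cells of 1 library each, which share their capture and depth.

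Shares of cells with a keratin UMI depended on depth and on RNA found in cells that should not make it. In the deposited counts, 98.8%, 93.1% and 94.7% of Undefined2 cells had a UMI of Krt5 or Krt14, and 76.2%, 89.2% and 82.8% one of Krt1 or Krt10. In the stroma clusters, with median depths of 4654, 3152 and 4388 UMIs, 29.9%, 58.2% and 44.1% of cells also had a UMI of Krt1 or Krt10, so the unthinned share carries a background. After thinning, 38.0%, 45.2% and 28.4% of Undefined2 cells had UMIs of both pairs, against 0.8%, 9.4% and 1.5% of stroma cells. The regressed tumor had the highest stroma share for each pair.

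**Figure D4:**
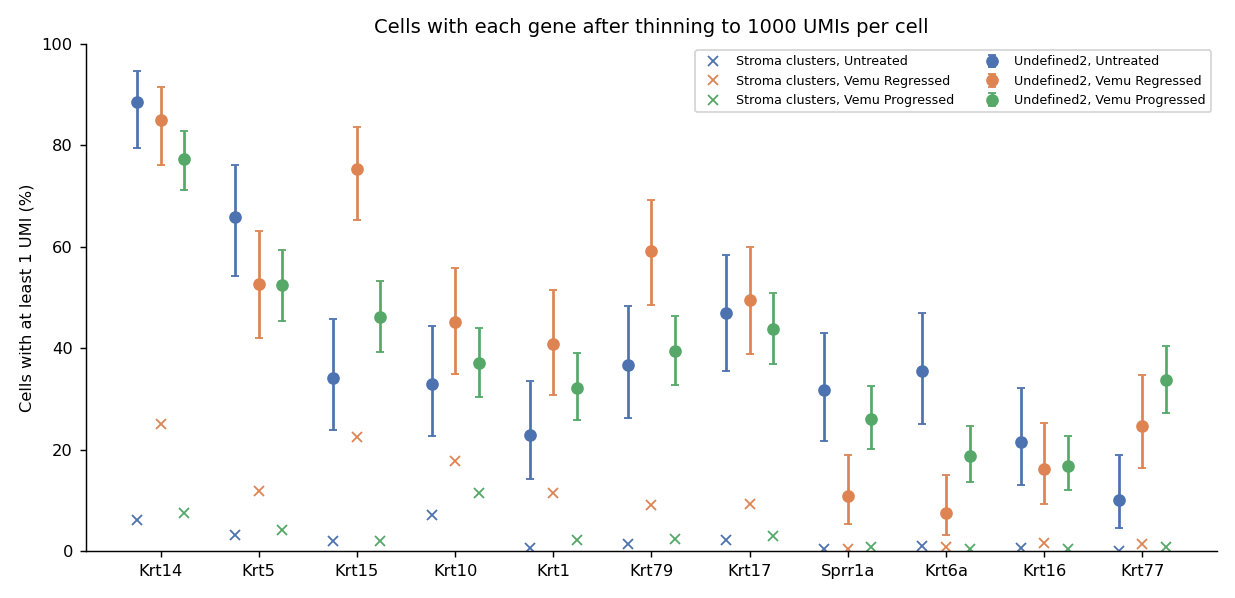
The y axis gives the percent of cells with at least 1 UMI of each gene after thinning each cell to 1000 UMIs, as filled points for Undefined2 with exact binomial 95% intervals for counting error and as crosses for the stroma clusters of the same tumor. Krt6a runs from 35.4% in the untreated to 7.5% in the regressed tumor, and Krt77 from 10.1% in the untreated to 33.7% in the progressed tumor, while the crosses for both stay under 2%.

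The basal list was highest in the untreated tumor as a sum and differed unevenly among its members. It summed to 28422 CPM without treatment, 21233 in the regressed tumor and 22497 in the progressed Undefined2 cells. The log2 ratio of the sum to untreated was -0.42 (-0.45 to -0.39) in the regressed and -0.34 (-0.36 to -0.32) in the progressed tumor. Krt14 stood at 18988, 12111 and 13519.5 and Krt5 at 7089, 3471 and 5754, so the untreated tumor was the highest for both. The log2 ratio of Krt5 in the regressed to the untreated tumor was -1.03 (-1.09 to -0.97). Krt15 ran the other way, at 1110.2, 4571 and 2100.1, a log2 ratio of 2.04 in the regressed tumor, whose stroma cells also had the most Krt15 after thinning (22.5% of cells against 1.9% in both other tumors).

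Attachment genes were mostly highest in the untreated tumor when summed over the cluster. The cells of neither range made up 57.5%, 30.4% and 39.7% of the untreated, regressed and progressed cells. Within them Col17a1 stood at 773, 652 and 1031 CPM, highest in the progressed tumor. The part of this mix of cells in the sums was not tested. Itga6 and Itgb4, the integrin pair of the hemidesmosome, stood at 261, 133 and 152 and at 136, 71.1 and 92.9 CPM for the untreated, regressed and progressed tumors. Dst, a linker of hemidesmosomes to keratin, was at 153, 373 and 154, highest in the regressed tumor. Trp63, the master transcription factor of stratified epithelium, was at 162, 161 and 237. Taking genes with at least 20 UMIs in a pair of tumors, 21.2% of all 8844 differed at least 2-fold between the regressed and the untreated tumor, 15.5% higher and 5.72% lower in the regressed one. Scaled by TMM instead of by total UMIs, 939 genes were higher and 855 lower in place of 1370 and 506, and the median log2 ratio of all genes was -0.09 in place of 0.15. Of 8 basal genes, 2 were higher and 1 lower by that measure. Of 11 hemidesmosome genes, 1 was higher and 3 were lower, with a median log2 ratio of -0.61 beside 0.15 over all genes.

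The spinous list was higher in both treated tumors, led by its keratins. It summed to 15689 CPM without treatment, 26347 in the regressed tumor and 24997 in the progressed one, a log2 ratio to untreated of 0.75 (0.72 to 0.78) and 0.67 (0.65 to 0.70). Krt10 stood at 2078, 8226 and 6194, and Krt1 at 2306, 6416 and 5398. Their log2 ratios in the regressed tumor were 1.98 (1.91 to 2.06) and 1.48. Dsg1a, the desmosomal cadherin desmoglein 1 alpha, stood at 169, 361 and 344. Of the 7 spinous genes, 3 were at least 2-fold higher in the regressed tumor, beside 15.5% of all genes, and none was lower. In the progressed tumor 3 were higher and none lower than without treatment, beside 7.04% and 3.85% of 9787 genes.

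These spinous levels rested on few cells in the untreated tumor. The 5 cells with the most Krt10 held 72.3% of its untreated UMIs, 54.2% of the regressed and 24.1% of the progressed ones, and for Krt1 the shares were 85.8%, 52.4% and 28.1%. After thinning, Krt10 was found in 32.9%, 45.2% and 37.0% of cells and Krt1 in 22.8%, 40.9% and 32.2%. In stroma cells these shares were 7.16%, 17.8% and 11.5% for Krt10 and 0.616%, 11.4% and 2.09% for Krt1, so no order is read from a single UMI. With at least 3 UMIs of the 1000, Krt10 was in 20.3%, 30.1% and 26.9% of Undefined2 cells and Krt1 in 11.4%, 28% and 26.4%, where no stroma share was above 0.077%. Without the 5 cells with the most UMIs of the list in each tumor, the log2 ratio to untreated was 0.75 in the regressed tumor and 1.06 in the progressed one, and without the deepest 5% of cells it was 0.35 and 0.69. Undefined1 did not share the direction, at -0.26 and -0.24. That difference between the clusters was not tested.

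The spinous genes Sbsn, Dmkn and Krtdap lie next to each other on chromosome 7 and encode secreted proteins of differentiating keratinocytes. Krtdap stood at 5889, 7643 and 7311 CPM, Dmkn at 3992, 2563 and 4017, and Sbsn at 1189.7, 1049 and 1649.5. None of the 3 reached a 2-fold difference in any pair of tumors. The 250 bases before their starts are shown because each holds the letters TGANTCA, the binding motif of AP-1 factors such as Fos and Jun, once. The sequences are from RefSeq on GRCm38.p6, read 5′ to 3′ on the gene's plus strand, with the motif in capitals.

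Krtdap: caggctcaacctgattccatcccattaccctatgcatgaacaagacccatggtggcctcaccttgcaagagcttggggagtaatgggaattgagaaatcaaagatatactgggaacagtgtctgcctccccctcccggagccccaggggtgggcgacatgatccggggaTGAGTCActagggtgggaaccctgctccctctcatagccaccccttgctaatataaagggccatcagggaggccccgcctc
Sbsn: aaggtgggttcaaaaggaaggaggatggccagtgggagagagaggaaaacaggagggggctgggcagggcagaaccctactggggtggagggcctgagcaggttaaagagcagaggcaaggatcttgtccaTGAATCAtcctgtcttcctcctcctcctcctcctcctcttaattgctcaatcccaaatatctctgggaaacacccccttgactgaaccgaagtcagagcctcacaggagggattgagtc
Dmkn: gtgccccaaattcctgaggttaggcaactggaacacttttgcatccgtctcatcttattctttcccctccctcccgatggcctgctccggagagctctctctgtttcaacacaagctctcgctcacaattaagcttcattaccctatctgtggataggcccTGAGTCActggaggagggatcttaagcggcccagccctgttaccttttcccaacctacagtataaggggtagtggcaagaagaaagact

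The regions are chr7:30787655-30787904 for Krtdap, chr7:30751221-30751470 for Sbsn and chr7:30763506-30763755 for Dmkn, and the motif starts 81, 119 and 89 bases before the start. It was searched on both strands, where it reads the same. It was found in 3 of the 4 spinous promoters in the table and in 4 of 11 granular, 3 of 8 stress, 1 of 4 upper follicle and 0 of 4 basal promoters, beside 6.75% of 32851 promoters of the same length. TATAAA was found in 2 of 4 spinous, 5 of 11 granular, 5 of 8 stress, 1 of 4 upper follicle and 1 of 4 basal promoters, beside 12.4% of all. These are matches of letters, and no binding was measured.

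Granular genes were sparse, and in some tumors a single cell held most UMIs of a gene. The list summed to 935 CPM without treatment, 235 in the regressed tumor and 218 in the progressed one. Of its untreated UMIs, 567 were from Cnfn, which encodes cornifelin, and 1 cell held 93.3% of those. Asprv1, a skin protease that processes filaggrin, stood at 266, 35.6 and 76.6 CPM, with 63.4% of its untreated UMIs in 1 cell but the progressed ones spread over 54 cells. Casp14, the caspase of cornification, was at 18.9, 53.9 and 53.6, and Lor, which encodes loricrin, had 7, 30 and 12 UMIs. Without the 5 cells with the most UMIs of the list in each tumor, its log2 ratio to untreated moved from -1.99 to -0.18 in the regressed and from -2.10 to 0.16 in the progressed tumor. Beyond the list, Lce3d, a late cornified envelope gene, had 206 UMIs in the untreated tumor with 99.5% in 1 cell, and Krt2, an upper spinous keratin, had 456 in the regressed tumor with 97.8% in 1 cell.

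**Figure D5:**
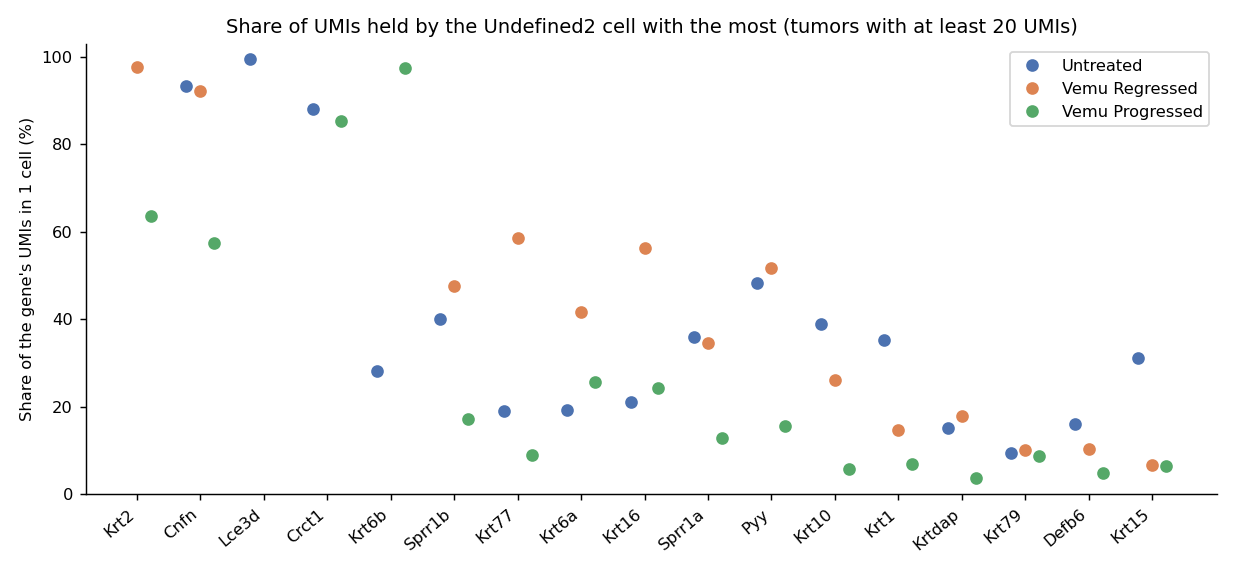
The y axis gives the percent of a gene's Undefined2 UMIs held by the single cell with the most, for each tumor with at least 20 UMIs of the gene. Krt2, Cnfn, Lce3d, Crct1 and Krt6b have tumors above 85%, while Krt79, Defb6 and Krt15 stay under 32% in all 3 tumors.

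The stress list was highest in the untreated tumor. It summed to 19632 CPM without treatment, 5705 in the regressed tumor and 8867 in the progressed one. The log2 ratio to untreated was -1.78 (-1.83 to -1.74) in the regressed and -1.15 (-1.18 to -1.12) in the progressed tumor. Of its 11 genes with enough counts, 10 were at least 2-fold lower in each treated tumor and none was higher, beside 5.72% and 3.85% of all genes. The exception was Krt17, at 4971, 3489 and 4793. Between the treated tumors 5 of the 11 were at least 2-fold higher in the progressed one, where 4.12% of 10075 genes were higher and 10.1% lower (14.2% either way). With TMM scaling, 743 of all genes were higher and 619 lower between the treated tumors, in place of 415 and 1020.

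Krt6a, a wound keratin (gene 16687, chr15:101689928-101694305), was highest in the untreated tumor. It stood at 4092 CPM without treatment, 199 in the regressed tumor and 944 in the progressed one, a log2 ratio of -4.36 (-4.58 to -4.15) and -2.12 to untreated. It was found in 36 of 80, 18 of 102 and 68 of 209 cells, and with at least 3 UMIs in 30, 9 and 44. After thinning, 35.4%, 7.5% and 18.8% of cells had it, beside 1.0%, 0.8% and 0.4% of stroma cells, so the order was that of the levels. Krt16, which pairs with Krt6, stood at 2159.8, 807 and 906. Of the UMIs of Krt6a, Krt6b and Krt16 together, the 5 highest cells held 59.2%, 79.7% and 49.3%. Krt6b had 611, 4 and 197 UMIs, and 1 cell held 97.5% of the progressed ones.

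Small proline-rich and calprotectin genes shared that order in part. Sprr1a stood at 2583, 287 and 1243 CPM in 42, 26 and 99 cells. Its promoter is shown because it holds the same motif 2 times, 146 and 116 bases before the start, at chr3:92485882-92486131 on the minus strand, read 5′ to 3′ along the gene.

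Sprr1a: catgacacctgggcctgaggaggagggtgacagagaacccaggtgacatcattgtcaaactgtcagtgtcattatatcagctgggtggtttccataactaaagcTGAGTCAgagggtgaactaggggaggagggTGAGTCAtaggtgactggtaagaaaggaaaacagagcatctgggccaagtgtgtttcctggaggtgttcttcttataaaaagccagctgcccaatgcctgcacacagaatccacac

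Sprr1b stood at 2016, 88.4 and 139.8, and the 5 highest cells held 97.0%, 98.8% and 69.5% of its UMIs. S100a8 and S100a9, the calprotectin subunits made by stressed keratinocytes and in quantity by neutrophils, stood at 1304, 332 and 248 and at 968, 216 and 202. In the other cells of the same tumors S100a8 was at 10163, 1808 and 28, and Retnlg, a neutrophil gene, was at 182, 18.3 and 0 in Undefined2. The part of neutrophil RNA in the S100a8 and S100a9 values was not tested. Without both genes the list's log2 ratio to untreated was -1.75 in the regressed tumor and -1.04 in the progressed one.

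The upper follicle list had similar sums in the 3 tumors. It summed to 27177 CPM without treatment, 26115 in the regressed tumor and 32074 in the progressed one. Its log2 ratio to untreated, -0.06 and 0.24, changed sign when the 5 highest cells were left out (0.16 in the regressed) or each cell was weighted equally (-0.16 in the progressed). Krt79 stood at 4014, 4433 and 4634, with all 3 values within a log2 ratio of 0.21. Defb6 (gene 116746, chr8:19225478-19228209) stood at 8384, 11714 and 11776, and Cst6 (gene 73720, chr19:5344705-5349574) at 9499, 6009.8 and 10528. Of 8 genes, 1 was at least 2-fold higher in the regressed tumor, near the 15.5% of all genes. It was Sostdc1, an inhibitor of BMP and Wnt signals, at 90.4, 245 and 166. In the progressed tumor 1 was lower, beside 3.85%. It was Fst, which encodes the activin inhibitor follistatin, at 53.7, 85.1 and 10.1. Among untreated cells of neither range, 42 Fst UMIs lay in 2 cells, with 78.6% in 1 cell. In the infundibular range Fst stood at 33.4, 219 and 29.6. Plet1, a marker of the follicle's junctional zone, stood at 143, 114 and 141. After thinning, Krt79 was found in 36.7%, 59.1% and 39.4% of cells, beside 1.35%, 9.06% and 2.29% of stroma cells and 2.35% of untreated and 15.5% of regressed neutrophils. With at least 3 UMIs of the 1000 it was in 36.7%, 49.5% and 34.6%, beside 0 of 2599, 0 of 1733 and 1 of 3400 stroma cells. The part of background RNA in the higher regressed share was not tested.

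Desmosomes join keratinocytes to each other. Of 11 desmosome genes, 1 was at least 2-fold higher (Dsg1a) and 1 lower (Dsg3) in the regressed tumor against the untreated one, with a median log2 ratio of 0.00, beside 15.5% and 5.72% of all genes. In the progressed tumor 1 was higher, beside 7.04%. Perp, a p63 target of desmosomes, stood at 4354, 3838 and 4316 CPM, and desmoplakin (Dsp) at 952, 1241 and 1254. Of 18 transcription factors, 1 was higher and 1 lower in the regressed tumor, beside the same shares, and none passed in the progressed tumor, beside 10.9% of all genes. Hes1, a target of Notch signalling, was the higher one, at 177, 816 and 270.1, and in Undefined1 it stood at 328, 569 and 243. Ovol1, a repressor active in differentiating keratinocytes, was the lower one, at 86.5, 39.9 and 119. Klf4, a factor of suprabasal cells, stood at 202, 321 and 337, and Grhl1 at 76.5, 100.2 and 134.

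The Notch list, whose signals drive the step from basal to spinous cells, summed to 369, 1103 and 566 CPM for the untreated, regressed and progressed tumors. Notch1 stood at 65.6, 106 and 104, and Notch2 at 22.9, 57.1 and 47.9. Of 5 genes of the list of EGFR, the growth factor receptor upstream of RAS and RAF in keratinocytes, and its ligands, 3 were at least 2-fold lower in the regressed than untreated tumor and 1 higher, beside 5.72% and 15.5% of all genes. The higher one was Egfr itself, at 19.9, 42.0 and 34.0 CPM. Areg, which encodes amphiregulin, stood at 135, 7.54 and 115, Hbegf at 164, 73.3 and 278, and Epgn at 34.8, 4.31 and 14.4. Targets of the MAPK pathway summed to 344, 151 and 356 CPM. The sum was also lowest in the regressed tumor in Undefined1 (538, 392 and 476) and in the other cells (1016, 556 and 1429). In Undefined2, Dusp6, a phosphatase of ERK, stood at 50.7, 23.7 and 97.7 and Fosl1 at 43.7, 2.16 and 53.1. Of the 5 MAPK targets with enough counts, 4 were at least 2-fold lower in the regressed tumor than without treatment, beside 5.72% of all genes. In the progressed tumor 0 of 6 were past 2-fold against untreated, where 10.9% of all genes were. Against the regressed tumor 4 of 7 were higher and 1 lower, beside 4.12% and 10.1%.

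The cell-cycle list was highest in the untreated tumor and came from few cells. The list summed to 650.0, 202 and 167 CPM, and 9 of 13 genes were at least 2-fold lower in the regressed tumor and 8 of 13 in the progressed one, beside 5.72% and 3.85% of all genes. At least 10 UMIs of the list were held by 11 of 80 cells (13.8%) without treatment, 3 of 102 regressed and 6 of 209 progressed cells. The 5 highest cells held 69.4%, 52.9% and 37.5% of the UMIs. A separate cluster of dividing cells was also deposited, whose cells held Krt5 at 1798 and Krt14 at 2585 CPM, so dividing keratinocytes outside Undefined2 are not counted here.

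Beyond the lists, the genes whose intervals lay farthest from 0 were of several kinds. Krt77 stood at 99.4, 869 and 1259 CPM in 19, 54 and 110 cells of the untreated, regressed and progressed tumors, a log2 ratio to untreated of 3.13 and 3.66, and 1 cell held 58.7% of the regressed UMIs. Pyy, the gut hormone peptide YY, stood at 57.6, 31.3 and 512 in 6, 8 and 54 cells, and in Undefined1 at 1.02, 0 and 12.1. In the progressed tumor Pyy stood at 959 in neither range, where 25 of 83 cells held it. It stood at 433 in the suprabasal range, in 20 of 48 cells, with 33.8% of those UMIs in 1 cell. AA467197, at 56.7, 14 and 325, overlaps Mir147 on chromosome 2, at 46.7, 8.62 and 249, so their UMIs cannot be told apart, and in the infundibular range AA467197 stood at 263, 34.9 and 1044, with 85.5%, 72.7% and 24.1% of those UMIs in 1 cell.

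Other genes on that list are given beside their levels in the rest of the tumor. Tpsb2, a mast cell tryptase, stood at 3.98, 202 and 22.5 in Undefined2, 3.07, 182 and 16.6 in Undefined1 and 115, 1303 and 516 in the other cells. Cd74, the invariant chain of MHC class II and a gene of Langerhans cells and macrophages, stood at 62.6, 509.8 and 431 in Undefined2, beside 1933, 3324 and 3388 in the other cells. Ccl2 stood at 16.9, 25.9 and 136, beside 412, 165 and 969.9 in the other cells. The list of melanocyte and tumor cell genes, which also holds the transgene sequences tdTomato and tWPRE, summed to 35.8, 114 and 74.2 CPM. Of its UMIs, 64.0% were from tWPRE. The immune list summed to 121, 725 and 517 CPM. Of Undefined2 cells, 77 untreated, 96 regressed and 207 progressed ones held at least 3 UMIs of the fibroblast list or of the immune list. That left 3, 6 and 2 cells under 3 UMIs of each, and lists of further classes were not used for this.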

How the data were processed

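Single-cell RNA was measured in 3 melanomas, 1 per group. For every tumor the authors deposited counts, whole numbers of UMIs per Entrez gene and cell, and a table that gives each cell its cluster identity (unit other, names rather than values). Per the submitters' processing notes, GSNAP, the build GRCm38 (mm10) and Seurat 2.2.0 were used. The count sums lay 5.02% above the deposited per-cell totals, and the cause was not tested. No per-sample column was left unmapped (0).

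Cells with the identity Undefined2 were taken as deposited. Doublet removal is not given in the sources used here, and no doublet caller was run. Cell names are serial, 0 were shared between libraries, and barcodes are not in the files used, so shared barcodes could not be counted. The 36530 features were matched by ID to symbols (31049 matched, features without one held 3.75% of UMIs).

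Counts were summed per tumor and cluster and divided by all UMIs of those cells (CPM, UMIs per 1000000, with exact Poisson intervals). Differences are log2 ratios with exact conditional binomial intervals, and shares have Clopper-Pearson intervals, all at 95% and for counting error only. Genes needed 20 UMIs in a pair of tumors, and a gene is counted as higher or lower at 2-fold. A count of 0 was set to 3 UMIs for a bound. No test was possible with 1 tumor per group. Single cells were thinned to 1000 UMIs, leaving out shallower ones (1 untreated, 9 regressed and 1 progressed). Cells near a limit of the ranges are those with 0.5% to 2% of their UMIs from either set of genes.

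The members and gene lists were chosen with earlier results of these data known, and the ranges after seeing the data. By rule, members of the lists with at least 20 UMIs are named, here in part with the rest given by counts, together with the 20 genes leading the cluster, the 10 farthest on each side against Undefined1, and the 5 per direction and pair of tumors whose intervals lay farthest from 0, of which those that matter are described. Sex-linked, haemoglobin, mitochondrial and ribosomal genes stayed out of the last. Promoters were read from RefSeq. A further allele shared by all groups and the values of some genes are not reported here.

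Alternatives were TMM scaling, equal weight per cell, thinning, depth limits, gene filters and leaving out cells or genes. Scripts were tested on simulated data. Versions were Python 3.11.15, numpy 2.4.6, scipy 1.17.1, pandas 2.3.3, R 4.3.3 and edgeR 4.0.16, which was used for TMM alone.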

Additional observations from a re-analysis of the deposited data

Results flagged for a closer look

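Some differences between tumors ran in opposite directions in Undefined2 and Undefined1, with both intervals clear of 0. With 1 tumor per group, none of these differences between clusters was tested. The log2 ratio of the spinous list to untreated was 0.75 in Undefined2 and -0.26 in Undefined1 for the regressed tumor, and 0.67 against -0.24 for the progressed tumor. For Krt10 alone, the progressed tumor gave 1.58 in Undefined2 and -0.63 in Undefined1. With the tumors summed, Krt10 in Undefined1 stood at 142 CPM, below Stroma9 (189) and neutrophils (147), cells that should not make it. The part of background RNA in the Undefined1 ratio was not tested. The basal list, progressed against regressed, gave 0.083 in Undefined2 and -0.35 in Undefined1.

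The cell-cycle list gave -1.69 in Undefined2 and 0.32 in Undefined1 for regressed against untreated, -1.96 and 0.90 for progressed against untreated, and -0.27 and 0.58 for progressed against regressed. In the untreated tumor the 5 highest Undefined2 cells held 69.4% of the list's UMIs.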

How the results depend on the processing

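No paired analysis was possible because each group has 1 tumor, so leaving out a replicate could not be done either. The spinous list stayed higher in both treated tumors than in the untreated one, the stress list stayed lower in both, and the spinous, granular and upper follicle lists stayed higher in Undefined2 than in Undefined1 under all alternatives run, except that over the 11 cells free of other classes' markers the spinous ratio of progressed to untreated was negative. The small ratios between the treated tumors (basal, spinous) and those of the upper follicle list changed sign under several settings, and the granular ratio to untreated lost its size or its sign without 5 cells per tumor. Leaving out the 5 highest cells, leaving out S100a8 and S100a9, and moving the limit of the ranges were chosen after seeing the data. Beyond the alternatives' own construction, the cause of each shift was not tested. With 80 to 209 cells per tumor, a gene held by 1 cell cannot be read as a level of the cluster. Keeping only cells with at least 1000 UMIs moved no list ratio, share of cells or count of genes beyond its counting interval or by over 1.5 times.

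Scaled by TMM, the log2 ratios of regressed to untreated were basal -0.66, spinous 0.51, granular -2.23, stress -2.02 and upper follicle -0.30. Progressed to regressed gave basal 0.32, spinous 0.16, stress 0.87 and upper follicle 0.53. The ratios of Undefined2 to Undefined1 came to basal 0.48, spinous 3.31, stress 1.39 and upper follicle 2.13. With each cell weighted equally, the log2 ratios of regressed to untreated were basal -0.46, spinous 0.66, stress -1.49 and upper follicle -0.19. From progressed to untreated came basal -0.31, spinous 0.76, granular -1.49, stress -0.96 and upper follicle -0.16. For progressed to regressed they were basal 0.15, spinous 0.11, granular 0.31, stress 0.54 and upper follicle 0.029. Undefined2 to Undefined1 gave basal 0.035, spinous 2.80, granular 3.49, stress 1.0 and upper follicle 2.32. Without the deepest 5% of cells, the log2 ratios of regressed to untreated were basal -0.38, spinous 0.35, granular -3.05, stress -1.69 and upper follicle 0.034. The ratios of progressed to untreated came to basal -0.42, granular -2.27, stress -1.33 and upper follicle 0.11. From progressed to regressed came basal -0.039, spinous 0.33, granular 0.78, stress 0.36 and upper follicle 0.074. For Undefined2 to Undefined1 they were basal 0.17, spinous 3.02 and upper follicle 2.10. A further set was the 3 untreated, 6 regressed and 2 progressed cells with under 3 UMIs of the fibroblast list and of the immune list. In them, the log2 ratios of regressed to untreated were basal -0.87, spinous 3.07, granular 1.74, stress -0.88 and upper follicle -0.87. Progressed to untreated gave basal -0.52, spinous -0.42, granular 0.91, stress -5.71 and upper follicle -0.74. The ratios of progressed to regressed came to basal 0.35, spinous -3.48, granular -0.83, stress -4.83 and upper follicle 0.14. From Undefined2 to Undefined1 came basal 0.41, spinous 2.17, granular 3.73, stress -0.30 and upper follicle 1.52. Without the leading gene of each list, the log2 ratios of regressed to untreated were basal -0.049, spinous 0.93, granular -0.85, stress -2.73 and upper follicle -0.38. For progressed to untreated they were basal -0.072, spinous 0.85, granular -0.90, stress -1.85 and upper follicle 0.11. Progressed to regressed gave basal -0.023, stress 0.88 and upper follicle 0.50. The ratios of Undefined2 to Undefined1 came to basal -0.52, spinous 3.04, granular 3.53, stress 2.62 and upper follicle 1.66. With cells thinned to 1000 UMIs, the log2 ratios of regressed to untreated were basal -0.52, spinous 0.48, stress -1.48 and upper follicle -0.18. From progressed to untreated came granular -1.63, stress -0.94 and upper follicle -0.18. For progressed to regressed they were basal 0.20, spinous 0.17, granular 0.46, stress 0.54 and upper follicle 0.00018. Without the 5 cells with the most UMIs of the list on each side, the log2 ratios of regressed to untreated were granular -0.18 and upper follicle 0.16. Progressed to untreated gave basal -0.28, spinous 1.06, granular 0.16, stress -0.95 and upper follicle 0.67. The ratios of progressed to regressed came to basal 0.16, spinous 0.31, granular 0.35, stress 0.84 and upper follicle 0.51. From Undefined2 to Undefined1 came basal 0.20, spinous 3.05, granular 3.10, stress 1.05 and upper follicle 1.83. Without S100a8 and S100a9, the stress log2 ratio was -1.04 for progressed to untreated, 0.71 for progressed to regressed and 1.14 for Undefined2 to Undefined1.

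Of non-immune cells, Undefined2 made up 2.63%, 3.68% and 5.02% in the untreated, regressed and progressed tumors. Genes past 2-fold numbered 1876 for regressed against untreated, 1066 for progressed against untreated and 1435 for progressed against regressed. With at least 50 UMIs required they numbered 873, 474 and 686, with no filter 3640, 2202 and 2826, and at a log2 ratio of at least 1.5 they numbered 841, 448 and 538. Thinned to 1000 UMIs, Krt5 or Krt14 was found in 91.1%, 86.0% and 80.3% of cells, Krt1 or Krt10 in 41.8%, 54.8% and 42.8%, both pairs in 38.0%, 45.2% and 28.4%, and neither in 5.06% of untreated and 5.29% of progressed cells. With at least 3 UMIs required, Krt5 or Krt14 was found in 86.3% of regressed and 82.3% of progressed cells, Krt1 or Krt10 in 50%, 68.6% and 52.2%, both pairs in 47.5%, 56.9% and 38.3%, and neither in 3.83% of progressed cells. With the limit of the ranges at 2% of UMIs, 47.4% of progressed cells were in neither.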

Other observations

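The list of MHC class I presentation summed to 4052, 5498 and 6710.2 CPM for the untreated, regressed and progressed tumors, and B2m, the light chain of the complex, stood at 1906, 2566 and 3556. H2-K1, a heavy chain, stood at 800.1, 1081 and 1367, and the immunoproteasome subunit Psmb9 at 36.8, 61.4 and 86.2. Undefined1 had the same order for B2m, at 1910, 2811 and 3768. Of 9 genes, 1 in the regressed tumor and 3 in the progressed one were at least 2-fold higher than without treatment, beside 15.5% and 7.04% of all genes, and none was lower.

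Immediate early and heat shock genes, which also react to tissue dissociation, summed to 8072, 7872 and 13930.3 CPM, highest in the progressed tumor. Fos stood at 1897, 1376 and 3670.2 and Atf3 at 316, 109 and 658. Jund, at 132, 1006 and 238, was highest in the regressed tumor, as it was in Undefined1 (160, 1040 and 211) and in the other cells (304, 1307 and 324).

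Among chemokines and alarmins, Ccl27a, a keratinocyte chemokine that draws T cells to skin, stood at 215, 396 and 448 CPM. Il33, an alarmin, stood at 249, 72.2 and 132, with 42.2% of the untreated UMIs in 1 cell. Among enzymes of cornification, Klk7, a protease that sheds corneocytes, stood at 303, 166 and 352, while Tgm1, the membrane transglutaminase, had 25, 4 and 22 UMIs. Egln3, an oxygen sensor of the hypoxia response, stood at 279, 123 and 326 in Undefined2 and 139, 62.9 and 247 in Undefined1.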
